A study of Mus musculus with 16 samples.

Results

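The sterol and fatty acid synthesis genes are 30 genes taken by symbol from the raw count table: 6 of the mevalonate pathway, 10 of the sterol pathway proper, 3 regulators, 2 of sterol transport, 3 of fatty acid synthesis and 6 of elongation and desaturation. They are 30 of the 33399 genes in the table, and all 30 were among the 16400 with enough counts to be tested. The rule takes genes by name and known role and uses no measured value, although it was written with earlier results of these data known.

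Cells make cholesterol from acetyl-CoA through mevalonate, squalene and lanosterol, and make fatty acids from the same acetyl-CoA through malonyl-CoA. The transcription factors SREBP-1 and SREBP-2, encoded by Srebf1 and Srebf2, switch on both sets of enzymes, and INSIG proteins hold them in the endoplasmic reticulum when membrane sterol is plentiful. Heart muscle burns fatty acids and takes most of its lipid from the blood, while its own synthesis genes stay active at low levels.

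RNA was sequenced from the ventricles of 16 wild-type C57BL/6 mice, 4 males and 4 females with chronic kidney disease (CKD) and 4 males and 4 females as controls. The CKD mice were given chow with 0.25% adenine in turns with standard chow for 6 weeks from 8 weeks of age, and the control mice ate standard chow throughout. Adenine gives rise to crystals that injure the kidney tubules. The chow was switched to keep the median urea nitrogen in blood, which climbs as kidneys fail, between 40 and 70 mg/dL. The comparisons ask how these transcripts differed with CKD over both sexes and in each sex. Kidney disease, the adenine diet and any loss of weight came together in the CKD mice and cannot be told apart here.

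The 16 libraries held about 10203700 to 13626000 counts each, and values below are CPM, counts scaled to library size with TMM factors. Libraries are named by sex, arm and a number that only tells them apart. The 7 cardiomyocyte markers summed to 29000 to 41900 CPM in CKD and 25400 to 36300 CPM in control ventricles, and the 3 hepatocyte markers to at most 1.02 CPM in CKD and 1.58 CPM in controls. Male CKD 4 stood apart, with 6 fibroblast markers that summed to 446 CPM, the lowest of the 8 CKD libraries, whose median was 1590 CPM; the controls ran from 1720 to 2040 CPM. Over all genes the Spearman correlation of a library with transcript GC content ran from -0.492 to 0.406 in CKD and from -0.471 to 0.548 in control libraries, with the lowest values in females. Female control 2 had -0.471, and female CKD 1 and 3 had lower values, -0.476 and -0.492. Results were also computed without female control 2 and male CKD 4, and with the GC trend of each library removed. Female CKD 1 and 3 were kept in the first of these.

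Upstream sequence is shown for 4 genes, because SREBP and its partners NF-Y and Sp1 act at short elements before the starts of such genes. Hmgcs1 was the 1 gene with the core of the sterol element in its window, Dhcr7 and Elovl5 had the lowest p for CKD among the sterol and the fatty acid genes, and Insig1 is the feedback gene. The RefSeq table (GRCm38.p6) held windows of 300 bases, 250 before and 50 after the start, for 23 of the 30 genes. Printed 5′ to 3′ is the part of the window upstream of both the RefSeq and the GENCODE start, with capitals for TCACNCCAC and for CCAAT on either strand (ATTGG on the minus strand). The stretch shown for Dhcr7, from the window nearest the GENCODE start, holds neither motif. Dhcr7 has 3 windows in the table, and the one at chr7:143829964-143830263 holds 2 CCAAT boxes. All 4 lie on the plus strand of GRCm38.p6, Hmgcs1 at chr13:119690101-119690350, Dhcr7 at chr7:143822917-143823144, Insig1 at chr5:28071162-28071362 and Elovl5 at chr9:77917115-77917363.
Hmgcs1: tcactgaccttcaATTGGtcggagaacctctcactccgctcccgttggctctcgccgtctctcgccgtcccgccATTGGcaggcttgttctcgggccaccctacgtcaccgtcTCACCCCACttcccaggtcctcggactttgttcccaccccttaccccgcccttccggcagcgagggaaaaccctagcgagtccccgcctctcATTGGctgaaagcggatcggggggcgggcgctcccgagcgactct
Dhcr7: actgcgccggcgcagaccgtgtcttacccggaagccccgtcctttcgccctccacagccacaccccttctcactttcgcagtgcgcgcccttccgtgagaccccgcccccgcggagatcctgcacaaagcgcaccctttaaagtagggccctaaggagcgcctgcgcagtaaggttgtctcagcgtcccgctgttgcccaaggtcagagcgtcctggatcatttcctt
Insig1: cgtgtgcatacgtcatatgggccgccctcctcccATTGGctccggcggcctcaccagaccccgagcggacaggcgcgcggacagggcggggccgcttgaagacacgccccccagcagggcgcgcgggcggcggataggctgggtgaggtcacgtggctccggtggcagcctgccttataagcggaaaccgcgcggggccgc
Elovl5: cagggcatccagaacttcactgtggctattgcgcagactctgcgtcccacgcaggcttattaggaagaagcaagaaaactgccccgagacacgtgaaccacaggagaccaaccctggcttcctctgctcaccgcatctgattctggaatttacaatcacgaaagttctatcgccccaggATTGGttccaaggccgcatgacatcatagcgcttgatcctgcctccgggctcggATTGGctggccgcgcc

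Each motif was searched on both strands of the whole windows. The core of the sterol element, TCACNCCAC, lay in 1 of the 28 windows of the 23 genes (3.57%), at position -137 from the RefSeq start of Hmgcs1, and in 1.24% of all 32851 windows. The full sterol element, which contains the core, was in 0 of the 28 windows, and in 0.234% of all with any base at 1 position. The NF-Y box CCAAT was in 75% of the windows of these genes and in 37.4% of all windows. The Sp1 box GGGCGG was in 71.4% of these and 35.7% of all windows, and the E-box CACGTG, which reads the same on both strands, in 17.9% and 7.15%. The LXR element was in 0 of the 28 windows and in 0.0152% of all. A match is a run of letters, and no factor binding was measured here.

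How much of each transcript the ventricle holds was compared per length, as CPM per kilobase of exon. Squalene synthase, Fdft1, which makes the first compound committed to sterols, had the highest control level, with 13.4 ± 3.25 CPM per kb in CKD and 12.7 ± 2.15 in control mice (SD, n = 8 each). The stearoyl-CoA desaturase Scd1, which puts the double bond into saturated fatty acids, had 5.45 ± 1.91 CPM per kb in CKD and 11 ± 7.26 in controls. The elongase Elovl5, which lengthens polyunsaturated fatty acids, had 8.13 ± 1.22 CPM per kb in CKD and 10.1 ± 1.62 in controls. The synthase Hmgcs1, which makes HMG-CoA at the head of the mevalonate pathway, had 9.17 ± 0.818 CPM per kb in CKD and 9.76 ± 2.31 in controls. These 4 levels follow each other in the control order, and their neighbours differ by less than the spread over mice.

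The lowest control level was that of Elovl6, an elongase of saturated and monounsaturated fatty acids, with 0.339 ± 0.209 CPM per kb in CKD and 0.445 ± 0.216 in controls. Lanosterol synthase, Lss, had 0.609 ± 0.174 CPM per kb in CKD and 0.486 ± 0.116 in controls. Squalene epoxidase, Sqle, a rate-limiting enzyme between Fdft1 and Lss, had 0.395 ± 0.0565 CPM per kb in CKD and 0.508 ± 0.19 in controls. Consecutive steps had unequal transcript levels. In controls Fdft1 lay at percentile 75.7 of the tested genes, Sqle at 10.2 and Lss at 9.66. Per kilobase of the longest transcript instead of all exons, 15 of the 30 levels moved by more than their spread. By that length the control levels were 14.5 CPM per kb for Fdft1, 0.75 for Lss and 0.631 for Sqle, so that Lss and Sqle changed places. Part of the Fdft1 level is uncertain, because 18.3% of its exon bases are overlapped by Ctsb on the other strand and 16.3% of its 25-base words also occur in Gm6781. The share of such words that occur in other genes was 34.5% for Acaca, 28.4% for Fdps, 27.8% for Tmem97 and 19.3% for Idi1.

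**Figure D1:**
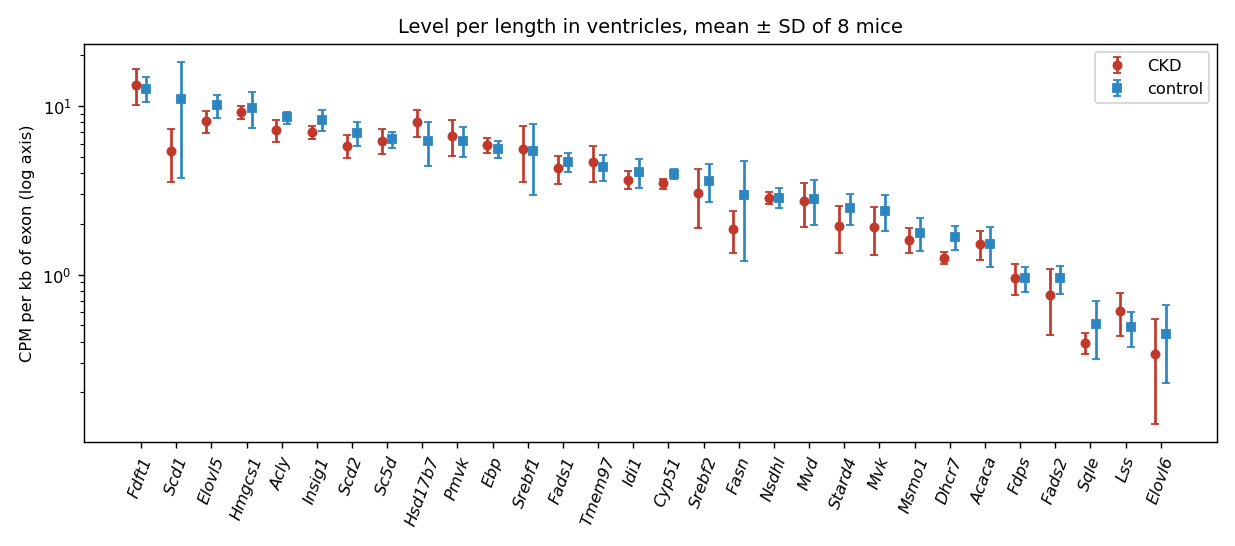
Level of each of the 30 genes per length (CPM per kilobase of exon, log axis), in the order of the control means; points are means and bars SDs over 8 mice per arm, with CKD left of control. In controls Fdft1 leads with 12.7 CPM per kb and Elovl6 is lowest with 0.445, and the bar of Scd1 (SD 7.26) is wider than those of its neighbours.

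Between CKD and control ventricles most of the 30 genes had lower values in CKD, in most cases by small amounts, and none passed the edgeR test. The largest changes were those of Scd1 and Fasn, which also varied widely between mice. Fold changes and their SEs are in log2 units throughout. Fold changes were negative for 22 of the 30 genes (73.3%), against 49.8% of all genes, and positive for 8 (26.7%, against 50.2%). The median log2 fold change was -0.14 over the 30 and 0.00 over all 16400 genes. The 9 genes of fatty acid synthesis, elongation and desaturation had 9 negative values and a median of -0.30, although Acaca, at -0.01, was 0.10 in limma-voom and 0.17 without male CKD 4 and female control 2. The 16 mevalonate and sterol enzymes had 10 negative and 6 positive values and a median of -0.04, and the 5 genes of regulation and transport 3 negative and 2 positive. Whether the branches differ from each other was not tested.

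The test was edgeR's quasi-likelihood F test, with a term for sex, and p was adjusted over all 16400 genes to a threshold of 0.05. Of the 30, 0 were called lower and 0 higher, where 0.0427% of all genes were called lower and 0.0427% higher. At an unadjusted p under 0.05, 6 of the 30 were lower, namely Dhcr7, Cyp51, Insig1, Acly, Elovl5 and Scd1 (20%, against 7.24% of all genes), and 1 was higher, Hsd17b7 (3.33%, against 8.12%). DESeq2 called 1 of the 30, Dhcr7, as lower, where it called 1.06% of all genes lower and 1.37% higher. Limma-voom called 0 of the 30, and 0.476% of all genes lower and 0.738% higher.

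**Figure D2:**
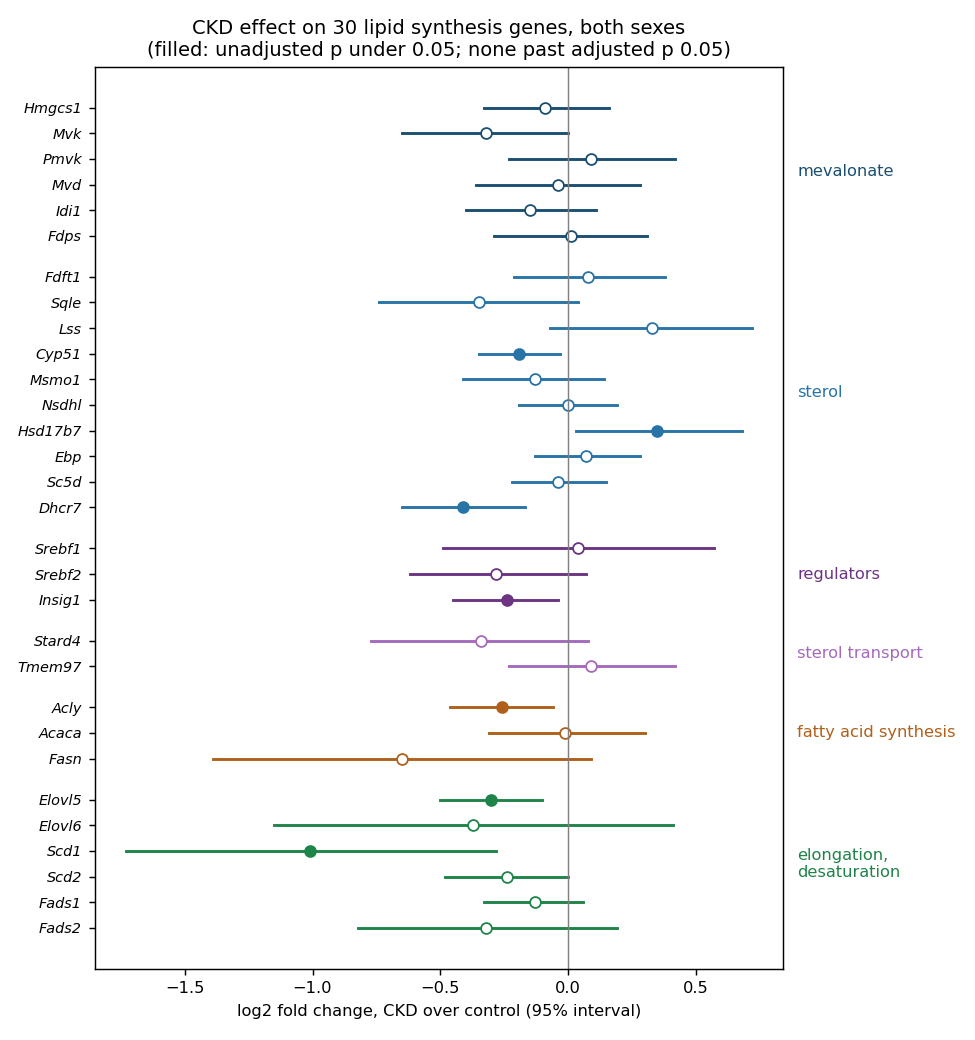
Log2 fold change of CKD over control for the 30 genes, both sexes, with 95% intervals from edgeR, grouped by role; filled points have an unadjusted p under 0.05 and open points do not. The 9 fatty acid genes run from -1.01 for Scd1 to -0.01 for Acaca, and the sterol enzymes from -0.41 for Dhcr7 to 0.35 for Hsd17b7.

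In the mevalonate pathway the 6 genes had log2 fold changes from -0.32 to 0.09. Mvk, the kinase that phosphorylates mevalonate, ran from 3.48 to 8.57 CPM with a median of 4.82 CPM in the 8 CKD mice, and from 3.59 to 8.48 CPM with a median of 6.45 CPM in the 8 controls. Over both sexes the ranges overlap almost in full, with male CKD 1 the highest of all. Male CKD 2, 3 and 4 had 4.73, 4.38 and 5.97 CPM, below the male controls at 6.69 to 8.48 CPM. In females Mvk ran from 3.48 to 4.97 CPM with CKD and from 3.59 to 6.2 CPM in controls. Its fold change over both sexes was -0.32 on the log2 scale (SE 0.16, adjusted p = 0.331), and -0.21 with the GC trend removed. Hmgcs1 had -0.09 (SE 0.12), the decarboxylase Mvd -0.04 (SE 0.15) and the isomerase Idi1, which makes the second isoprene unit, -0.15 (SE 0.12). The kinase Pmvk had 0.09 (SE 0.16) and farnesyl diphosphate synthase, Fdps, 0.01 (SE 0.14). The signs of Mvd, Pmvk and Fdps changed under some of the 27 alternative settings.

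In the sterol pathway the lowest p belonged to Dhcr7, the reductase of the last step to cholesterol (ENSMUSG00000058454.15, chromosome 7 from 143823145 to 143848410). It had 7.04, 7.26, 7.86 and 6.73 CPM in male CKD mice, against 10.9, 7.07, 9.56 and 10.8 CPM in male controls. In females it had 6.45, 7.27, 8.45 and 7.58 CPM with CKD, against 8.58, 12.4, 9.18 and 9.46 CPM in controls. Male control 2, at 7.07 CPM, was the 1 control within the range of the CKD mice, and 7 of 8 controls lay above every CKD mouse. The log2 difference was -0.41 (SE 0.11, 95% interval -0.65 to -0.17, unadjusted p = 0.00225, adjusted p = 0.123). It was -0.41 in DESeq2 (adjusted p = 0.0495) and -0.35 in limma-voom (adjusted p = 0.0949), and ran from -0.49 to -0.34 over 27 alternative settings.

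Cyp51, the demethylase that acts on lanosterol (ENSMUSG00000001467.5, chromosome 5 from 4081145 to 4104746), varied least of the 30 within groups, with an SD of 0.0801 log2 units. In males it had 15.7, 16.7, 13.7 and 15.4 CPM with CKD, against 16.1, 17, 16.2 and 17 CPM in controls. In females it had 16.8, 15, 15 and 14.7 CPM with CKD, against 18.4, 18, 18.4 and 19.2 CPM in controls. Every female CKD mouse lay below every female control, while among males 1 CKD mouse lay within the control range. In log2 units the difference was -0.19 (SE 0.08, unadjusted p = 0.0248, adjusted p = 0.253), with a range from -0.24 to -0.17 over the alternatives.

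Hsd17b7, the sterol ketoreductase (ENSMUSG00000026675.12, chromosome 1 from 169949535 to 169969241), was the 1 gene with an unadjusted p under 0.05 and a positive value. It ran from 33.2 to 54.2 CPM with a median of 39.9 CPM in CKD, and from 14.5 to 44.7 CPM with a median of 35 CPM in controls. The 3 lowest libraries, at 14.5, 24.7 and 26.7 CPM, were controls, and above them the ranges overlap. The CKD effect was 0.35 (SE 0.16, unadjusted p = 0.0362, adjusted p = 0.286).

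Sqle ran from 1.88 to 2.55 CPM with a median of 2.16 CPM in CKD, and from 1.64 to 4.82 CPM with a median of 2.54 CPM in controls. Its 2 highest values, 4.82 and 3.91 CPM, were those of female controls 2 and 1, and male controls 2 and 3, at 2.81 and 2.83 CPM, also lay above every CKD mouse. Male control 1, at 1.64 CPM, lay below every CKD mouse, and the remaining 3 controls lay among them. It had a fold change of -0.35 (SE 0.18, adjusted p = 0.367), and -0.23 without female control 2. Fdft1 ran from 43.4 to 79.1 CPM with a median of 51.9 CPM in CKD, and from 40.1 to 64.8 CPM with a median of 55.8 CPM in controls. Its fold change was 0.08 (SE 0.14), and it was -0.07 both in limma-voom and without male CKD 4 and female control 2.

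The remaining sterol enzymes had log2 fold changes from -0.13 to 0.33. Lss, which closes the sterol rings, had 0.33 (SE 0.19, adjusted p = 0.417) and 0.22 in limma-voom. The oxidase Msmo1, which takes part in removing methyl groups after Cyp51, had -0.13 (SE 0.13), and the dehydrogenase Nsdhl of the same step -0.00 (SE 0.09). The sterol isomerase Ebp had 0.07 (SE 0.10) and the desaturase Sc5d -0.04 (SE 0.09). The 95% interval of Nsdhl ran from -0.19 to 0.19 and that of Sc5d from -0.22 to 0.15.

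Of the regulators, Insig1 had the lowest p and the SREBP genes varied widely between mice. Insig1, which retains SREBP and is itself an SREBP target (ENSMUSG00000045294.11, chromosome 5 from 28071363 to 28078662), ran from 18.8 to 24 CPM with a median of 22 CPM in CKD. In controls it ran from 19.6 to 32.7 CPM with a median of 25.5 CPM. Its log2 fold change was -0.24 (SE 0.10, unadjusted p = 0.0206, adjusted p = 0.237).

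Srebf2, which drives the sterol genes, ran from 11 to 37.3 CPM with a median of 21 CPM in CKD, and from 13.3 to 33.7 CPM with a median of 27 CPM in controls. Its fold change was -0.28 (SE 0.16, adjusted p = 0.428), and -0.12 with the GC trend removed. Srebf1, which drives the fatty acid genes, ran from 20.1 to 55.7 CPM with a median of 28 CPM in CKD, and from 6.13 to 44.8 CPM with a median of 33.1 CPM in controls. The lowest value, 6.13 CPM, was that of female control 2. Its fold change was 0.04 (SE 0.25), 0.25 with the GC trend removed and -0.10 without female control 2.

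The sterol carrier Stard4, a cytosolic protein that moves cholesterol between membranes, ran from 3.6 to 13.4 CPM with a median of 12.3 CPM in CKD, and from 10.9 to 18.4 CPM with a median of 13.3 CPM in controls. Male CKD 4, at 3.6 CPM, was far below the rest, followed by female CKD 2 at 7.98 CPM. The fold change was -0.34 (SE 0.20, adjusted p = 0.427), and -0.17 without male CKD 4 and female control 2. Tmem97, an endoplasmic reticulum protein that binds NPC1, had 0.09 (SE 0.16).

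In fatty acid synthesis the citrate lyase Acly, which supplies cytosolic acetyl-CoA (ENSMUSG00000020917.17, chromosome 11 from 100476353 to 100528000), ran from 27.7 to 47.4 CPM with a median of 37.3 CPM in CKD. In controls it ran from 41.2 to 52.3 CPM with a median of 44.7 CPM. In CKD 6 of 8 mice lay below every control; male CKD 1 at 42.8 CPM and female CKD 4 at 47.4 CPM lay within the control range. Over both sexes the value was -0.26 (SE 0.10, unadjusted p = 0.0145, adjusted p = 0.208). It was -0.22 in limma-voom and -0.18 without male CKD 4 and female control 2.

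Fatty acid synthase, Fasn, named after its values were seen, which builds palmitate, ran from 11.2 to 28.3 CPM with a median of 21 CPM in CKD, and from 7.39 to 56.8 CPM with a median of 39 CPM in controls. The lowest and the highest libraries were controls. Female controls 1 and 2 had 7.39 and 8.41 CPM, and 5 other controls had 37.9 CPM or more. The fold change was -0.65 (SE 0.35, 95% interval -1.39 to 0.09, adjusted p = 0.384), and -0.27 in limma-voom. It was -0.44 with the GC trend removed and -0.81 without male CKD 4 and female control 2. Acaca, the carboxylase that makes malonyl-CoA, had -0.01 (SE 0.15), and 0.17 without male CKD 4 and female control 2.

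Among the desaturases Scd1 had the largest fold change of the 30 genes and one of the widest spreads (ENSMUSG00000037071.2, chromosome 19 from 44394455 to 44407879). It had 24.5, 41.4, 18.4 and 17.2 CPM in male CKD mice, against 27.5, 42.6, 117 and 24.8 CPM in male controls. In females it had 24.1, 17.9, 32.2 and 37.6 CPM with CKD, against 20, 75.6, 33.7 and 87.6 CPM in controls. The 4 highest libraries were controls, and the other 4 controls overlap the CKD mice. The log2 fold change was -1.01 (SE 0.35, 95% interval -1.73 to -0.28, unadjusted p = 0.00952, adjusted p = 0.181). Limma-voom, which gives libraries unequal weight, gave -0.50 (adjusted p = 0.398), and without any 1 library the value ran from -1.17 to -0.66, the smallest without male control 3.

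Its relative Scd2, the main form in brain, ran from 27.3 to 42.6 CPM with a median of 29.8 CPM in CKD, and from 30.3 to 48 CPM with a median of 37.2 CPM in controls. The ranges overlap, with 5 of 8 CKD mice at 30.8 CPM or less. The fold change was -0.24 (SE 0.12, adjusted p = 0.334). The 2 genes share sequence, 6.54% of the 25-base words of Scd1 with Scd2 and 7.10% with Scd3, so reads could pass between them. The desaturases of polyunsaturated fatty acids had -0.13 (SE 0.09) for Fads1 and -0.32 (SE 0.24) for Fads2, which was -0.17 without male CKD 4.

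Elovl5 (ENSMUSG00000032349.13, chromosome 9 from 77917364 to 77984519) had the lowest p of the fatty acid genes. It had 26.4, 27.6, 30.1 and 21 CPM in male CKD mice, against 31.1, 31, 31.8 and 32.1 CPM in male controls. In females it had 35.2, 26.7, 29.9 and 32.3 CPM with CKD, against 40.8, 43.4, 30.7 and 42.6 CPM in controls. All 4 male CKD mice lay below all 4 male controls, and in females 3 of 4 controls lay above every CKD mouse. The CKD effect was -0.30 (SE 0.10, unadjusted p = 0.00548, adjusted p = 0.146), with a range from -0.37 to -0.24 over the alternatives.

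Elovl6, the lowest of the 30 in level, ran from 0.663 to 4.89 CPM with a median of 1.92 CPM in CKD, and from 1.21 to 4.82 CPM with a median of 2.79 CPM in controls. It also varied most within groups, with an SD of 0.894 log2 units, followed by Fasn with 0.871 and Scd1 with 0.807. Its fold change was -0.37 (SE 0.37), -0.72 without male CKD 2 and -0.02 in limma-voom.

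**Figure D3:**
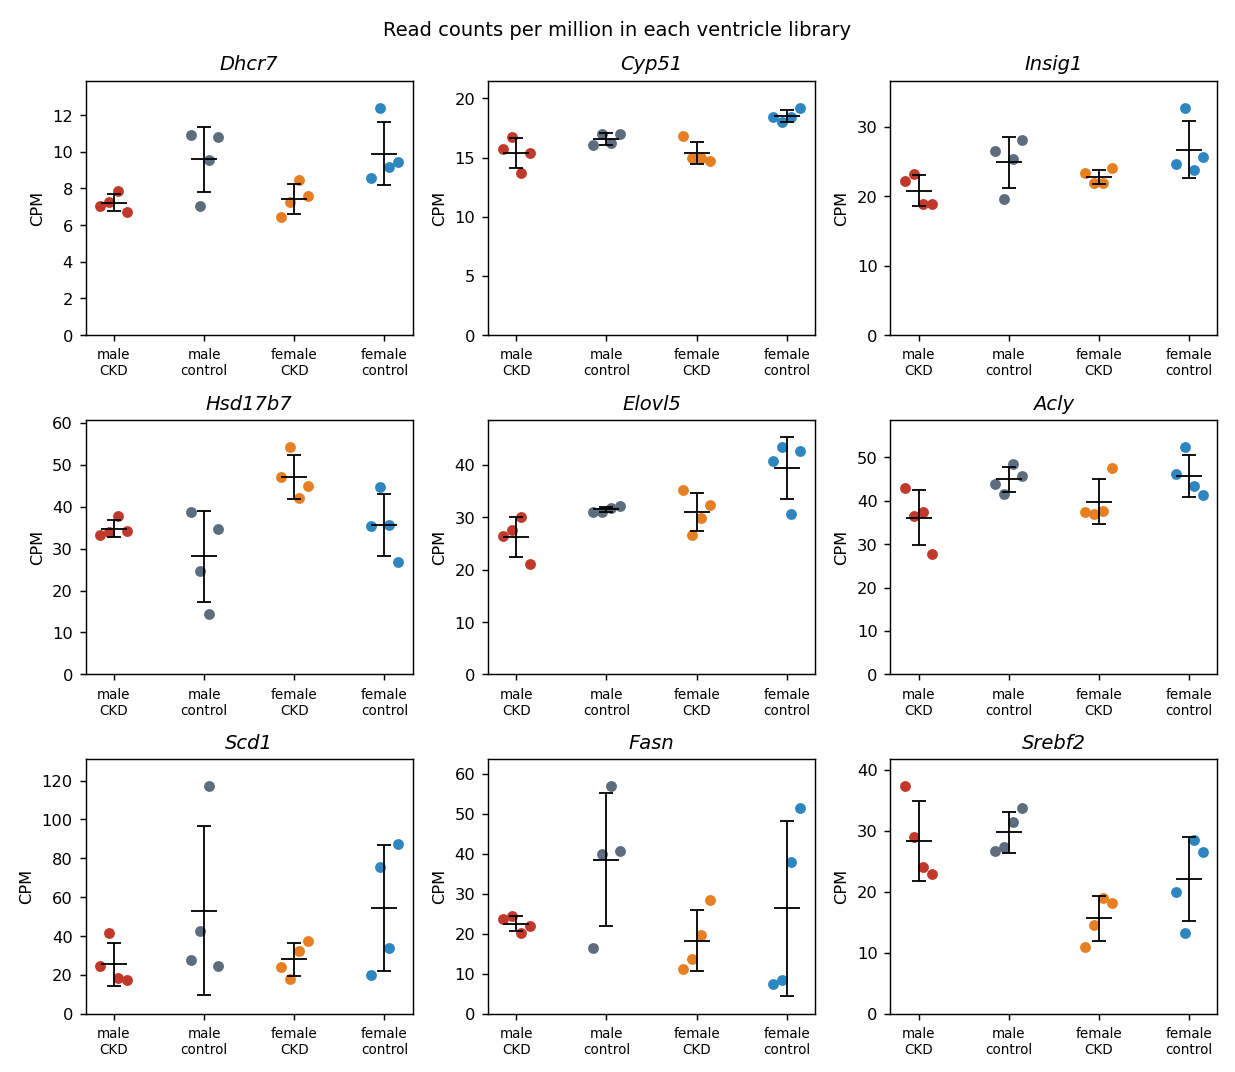
CPM of 9 of the genes in each library, 4 mice per group, with the mean and SD in black; CKD stands left of control within each sex. In Dhcr7 and Cyp51 every female CKD point lies below every female control, at most 8.45 against at least 8.58 CPM for Dhcr7, and in Scd1 and Fasn the controls spread from 20 to 117 and from 7.39 to 56.8 CPM.

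Marker lists of several other cell types leaned lower in CKD, and others did not. Of the 7 cardiomyocyte markers 5 had positive fold changes (median log2 0.17), as had 2 of 3 tested brown adipocyte markers (median 0.10) and 2 of 3 tested skeletal muscle markers (median 0.02). The 3 skeletal muscle values lay far apart, at -0.89 (SE 0.30) for Acta1, 0.02 (SE 0.12) for Ckm and 0.56 (SE 0.40) for Myh1. All 6 fibroblast markers had negative fold changes (median log2 -0.38), with sums from 446 to 2070 CPM in CKD and 1720 to 2040 CPM in controls. All 6 endothelial markers were negative (median -0.42), with sums from 309 to 815 CPM in CKD and 640 to 868 CPM in controls. The lowest sums of both lists, 446 and 309 CPM, were those of male CKD 4. The other male CKD libraries had fibroblast sums of 1850 to 2070 CPM, against 1770 to 2040 CPM in male controls. Their endothelial sums were 561 to 707 CPM, against 660 to 830 CPM. In females fibroblast sums were 1280 to 1970 CPM with CKD and 1720 to 1810 CPM in controls. Endothelial sums were 506 to 815 CPM and 640 to 868 CPM. The 8 white adipocyte markers summed to 334 to 742 CPM in CKD and 403 to 554 CPM in controls, and up to 2 of the 8 were at 0 in a library. Of the 6 tested, 4 had negative fold changes and 2 positive (median -0.16). Adipoq, whose values are given below, was a small part of the white adipocyte sums. How far those sums follow fat cells was not tested. The 8 Schwann cell markers, cells that make much lipid for myelin, summed to 35.2 to 56.8 CPM in CKD and 45.7 to 57.4 CPM in controls. All 7 tested Schwann cell markers had negative fold changes (median -0.19). So had all 5 smooth muscle and pericyte markers (median -0.17) and 5 of 6 macrophage markers (median -0.11). Male CKD 4 also had the lowest Schwann cell, smooth muscle and macrophage sums, at 35.2, 427 and 77 CPM. Marker fold changes without that library are not given here. The part of these cell types in the values of the lipid genes was not tested, and in whole ventricles fewer cells of a type and less RNA per cell cannot be told apart. With male CKD 4 and female control 2 left out, the fold changes were -0.34 for Dhcr7, -0.24 for Elovl5, -0.85 for Scd1 and -0.21 for Cyp51. Titles carry a number whose meaning is not given, and within the 10 libraries with number 6 the values were -0.38 for Dhcr7, -0.26 for Elovl5, -0.77 for Scd1 and -0.21 for Cyp51.

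Co-variation between mice was examined for 12 pairs of genes, after the mean of each group was removed, over 16 libraries. Scd1 went with Adipoq, the adiponectin gene of fat cells, with Pearson r = 0.83 (permutation p = 0.00014, adjusted over the 12 pairs p = 0.00168) and Spearman rho = 0.85 (adjusted permutation p = 0.00384). It was 0.82 without the 2 libraries farthest from the median of Scd1, female control 1 and male control 3, and 0.80 without male CKD 4 and female control 2. Adipoq ran from 0.447 to 7.26 CPM in CKD and from 1.02 to 6.13 CPM in controls, or 0.10 in log2 units (SE 0.48, adjusted p = 0.932), and its groups overlap. It is 1 of 6 tested white adipocyte markers, of which 4 had negative fold changes (median log2 -0.16). The other white adipocyte markers were not paired with Scd1. Both genes are abundant in fat cells, and the part of fat cells in the Scd1 values was not tested.

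The other 11 pairs did not pass after adjustment over the 12. Scd1 and Fasn had r = 0.48 (permutation p = 0.181, adjusted p = 0.543) and rho = 0.46 (adjusted permutation p = 0.502), with r = 0.27 without the 2 farthest libraries. That r was 0.62 after GC removal and 0.73 without male CKD 4 and female control 2 (permutation p = 0.0423, adjusted p = 0.127). Fasn and Adipoq had r = 0.23 (permutation p = 0.388, adjusted p = 0.666) and rho = 0.32 (adjusted permutation p = 0.565), with r = 0.04 without the 2 farthest libraries and 0.49 without male CKD 4 and female control 2 (adjusted permutation p = 0.127). Hmgcs1 and Idi1, near steps of 1 pathway, had r = 0.59 (permutation p = 0.0578, adjusted p = 0.231) and rho = 0.69 (adjusted permutation p = 0.0646), with r = 0.68 without the 2 farthest libraries and 0.29 after GC removal. Hmgcs1 and its regulator Srebf2 had r = -0.63 (permutation p = 0.0215, adjusted p = 0.129) and rho = -0.67 (adjusted permutation p = 0.0646), with r = -0.67 without the 2 farthest and -0.01 after GC removal. For the other 7 pairs the adjusted permutation p of r ran from 0.666 to 0.945.

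**Figure D4:**
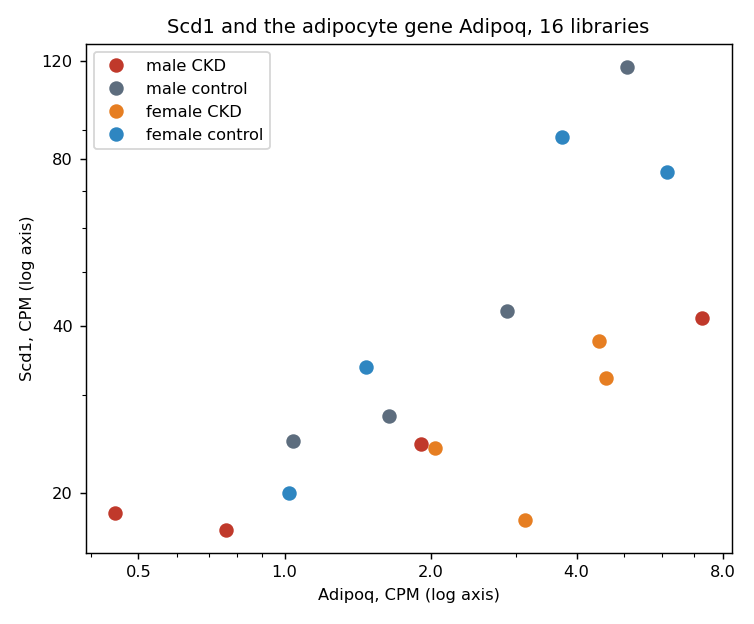
Scd1 against Adipoq in the 16 libraries (CPM, both axes logarithmic), coloured by sex and arm. The 2 genes increase together within groups (r = 0.83 after group means were removed), and the 3 libraries with the highest Scd1, from 75.6 to 117 CPM, are controls.

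In each sex alone, 0 of the 30 genes passed the adjusted threshold in edgeR, DESeq2 or limma-voom. In females 0.0305% of all genes were called lower and 0.0244% higher by edgeR, and in males 0% and 0%. DESeq2 called 0.0976% of all genes lower and 0.0976% higher in females, and 0.0366% and 0.0366% in males; limma-voom called 0.171% and 0.165% in females, and 0% and 0% in males. At an unadjusted p under 0.05, 4 of the 30 were lower in CKD females, Cyp51, Dhcr7, Elovl5 and Srebf2 (13.3%, against 4.18% of all genes), and 2 in CKD males, Acly and Dhcr7 (6.67%, against 2.95%). In CKD females 0 were higher (4.16% of all genes were), and in CKD males 0 (3.93%). Negative values were held by 20 of the 30 in females (66.7%, against 50.7% of all genes) and positive by 10 (33.3%, against 49.3%), and negative by 23 in males (76.7%, against 48.6%) and positive by 7 (23.3%, against 51.4%). Fold changes were negative in both sexes for 18 of the 30 (60%, against 35.7% of all genes) and positive in both for 5 (16.7%, against 36.4%). Every CKD mouse lay below every control for 3 genes in females, Cyp51, Dhcr7 and Fads1 (2.49% of all genes did), for 1 in males, Elovl5 (1.56%), and for 0 over both sexes (0.0427%). Above every control lay 0 of the 30 in females (5.08% of all genes), 0 in males (1.63%) and 0 over both sexes (0.159%).

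Fads1, named after its values were seen, had 16.6, 16.6, 17.6 and 18.5 CPM in female CKD mice and 22, 19.4, 20.8 and 21.3 CPM in female controls, and in males 25.8, 24.1, 20.5 and 25.1 CPM with CKD and 22.2, 19.8, 27.4 and 26.2 CPM in controls. The female CKD mice lay below the female controls, and the male groups overlap. Srebf2 had 11, 14.5, 19 and 18.1 CPM in female CKD mice and 20, 13.3, 28.5 and 26.5 CPM in female controls. In males it had 37.3, 29, 24.1 and 23 CPM with CKD and 26.7, 27.3, 31.5 and 33.7 CPM in controls, and the groups overlap in both sexes.

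The difference between the sexes was itself tested, as the CKD effect in females minus that in males, and 0 of the 30 genes passed. By edgeR 0% of all genes were called in either direction, and at an unadjusted p under 0.05 0 of the 30 were, against 1.01% of all genes lower and 0.671% higher. DESeq2 and limma-voom called 0 of all genes too. The sign was negative for 17 of the 30 (56.7%, against 54.0% of all genes) and positive for 13 (43.3%, against 46.0%). For Fads1 the CKD effect was -0.27 (SE 0.13) in females and -0.00 (SE 0.13) in males, a difference of -0.27 (95% interval -0.65 to 0.11). For Srebf2 it was -0.49 (SE 0.23) in females and -0.07 (SE 0.23) in males, a difference of -0.42 (-1.11 to 0.26). With the GC trend removed the Srebf2 effect was -0.29 in females and 0.04 in males. Dhcr7 had -0.41 (SE 0.17) in each sex, with a difference from -0.51 to 0.50, and Scd1 -0.95 (SE 0.50) in females and -1.06 (SE 0.50) in males. With 4 mice a group these intervals are wide.

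**Figure D5:**
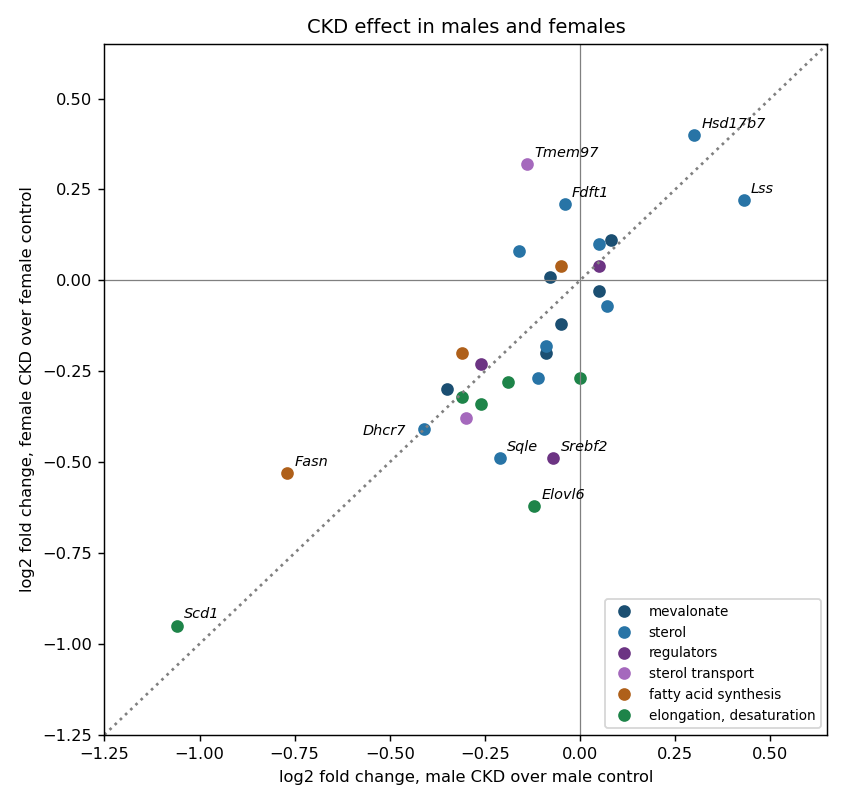
Log2 fold change of CKD over control in females (vertical axis) against males (horizontal axis) for the 30 genes, coloured by role; the dotted line marks equal values. Scd1 lies lowest in both sexes, at -0.95 in females and -1.06 in males, and Elovl6, Tmem97 and Srebf2 lie farthest from the line (differences of -0.50, 0.46 and -0.42), with 0 of 30 differences past the test.

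Among control mice, none of the 30 genes passed the test of females against males after adjustment in edgeR. By edgeR 0.0244% of all genes were called lower and 0.0122% higher in females, with 0 of the 30 in either set. DESeq2 called 0.0427% lower and 0.0305% higher, and limma-voom 0.0244% and 0.0244%, with 0 of the 30 in both tools. The sign was negative for 12 of the 30 (40%, against 48.5% of all genes) and positive for 18 (60%, against 51.5%). At an unadjusted p under 0.05, Mvd and Mvk were lower in females (6.67%, against 4.51% of all genes), and Elovl5 and Nsdhl higher (6.67%, against 2.34%). Mvk had 6.2, 3.59, 5.65 and 5.71 CPM in female controls and 8.2, 6.78, 8.48 and 6.69 CPM in male controls. Every female lay below every male for this gene (2.03% of all genes did), a log2 difference of -0.51 (SE 0.22, adjusted p = 0.639), and -0.23 with the GC trend removed. Mvd had -0.62 (SE 0.22, adjusted p = 0.639), and -0.09 with the GC trend removed.

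Nsdhl, on the X chromosome, had 9.86, 8.93, 9.67 and 7.59 CPM in female controls and 7.35, 7, 7.64 and 7.45 CPM in male controls. Female control 4 lay within the male range, and the fold change was 0.29 (SE 0.13, adjusted p = 0.639). Ebp, also on the X chromosome, had -0.10 (SE 0.14). Cyp51 lay higher in every female than in every male (1.90% of all genes did), with a fold change of 0.16 (SE 0.11). Elovl5 had 0.32 (SE 0.14) and 0.22 with the GC trend removed. The GC correlation of the libraries ran from -0.471 to 0.145 in female and from 0.00959 to 0.548 in male controls, and its part in these values was not tested beyond that removal.

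Of the 63 further genes tested, of 69 listed in 6 groups, 0 passed the adjusted threshold in edgeR, where 0.0427% of all genes were called lower and 0.0427% higher. At an unadjusted p under 0.05, 5 were lower and 1 higher, where 7.24% of all genes were lower and 8.12% higher. Of 8 further sterol genes 3 had negative values (median 0.06).

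Of 19 further fatty acid genes 13 had negative values (median -0.12). Tecr, the reductase that ends each elongation round, ran from 208 to 349 CPM in CKD and from 238 to 369 CPM in controls, a log2 difference of -0.28 (SE 0.09, adjusted p = 0.176), with an adjusted p of 0.04 in limma-voom. Slc25a1, which carries citrate out of mitochondria to Acly, ran from 3.13 to 6.89 CPM in CKD and from 4.25 to 11.6 CPM in controls (log2 fold change -0.49, SE 0.17, adjusted p = 0.176). In both genes the ranges of the arms overlap. Of 9 triglyceride synthesis genes 7 were negative (median -0.11), with the phosphatase Lpin1 at -0.28 (SE 0.11).

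The groups that sense or move sterol showed no common direction. Of 9 genes that control SREBP 6 were negative (median -0.05) and 0 had an unadjusted p under 0.05. Of 10 genes of cholesterol uptake and trafficking 5 were negative (median -0.00), and Mylip, which marks lipoprotein receptors for breakdown, had 0.50 (SE 0.20, adjusted p = 0.239). Of 8 genes of LXR and efflux 5 were negative (median -0.08) and 0 were at an unadjusted p under 0.05.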

How the data were processed

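RNA from the ventricles of 16 mice was sequenced. The deposited table holds raw read counts per gene, made by the authors; the submitters' processing notes name STAR 2.6.1d, featureCounts, Subread 1.6.3, FastQC, MultiQC, DESeq2 1.30.1 and mm10. Which gene models were used, whether counting used strand and how reads with several matches were treated was not given in the sources used here.

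Groups came from the labels, and library numbers within a group do not pair mice. Nothing says how the libraries were batched; the meaning of the number after C in the titles is not given, and it was used as an alternative term. Genes were kept by filterByExpr (minimum count 10, minimum total 15), which left 16400 of 33399 and at least 99.8% of the counts of each library. Counts were scaled by TMM and fitted with edgeR 4.0.16 (quasi-likelihood F test; Benjamini-Hochberg over 16400 genes; threshold 0.05) in R 4.3.3, with a sex term for both sexes together, and 1 model of 4 groups for each sex, for the difference between sexes and for control mice. The script was tested on simulated counts. Alternatives were DESeq2 1.42.0, limma-voom with quality weights (limma 3.58.1), other scalings and filters, the title number, removal of the GC trend (lowess span 0.3) and libraries left out. DESeq2 and limma-voom are separate tools, and p-values cover the spread between these mice. Totals of about 10203700 to 13626000 counts gave a median SE of 0.149 log2 units over both sexes. Pairs were tested on log2 CPM, computed after 0.5 was added to each count, with group means removed. The test used 100000 permutations within groups, two-sided.

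Names and positions come from GENCODE M21 (GRCm38) and promoter windows from RefSeq (GRCm38.p6), which held 23 of the 30 genes. The members, lists and tests were chosen with earlier results of these data known. Genes given in full were, by rule, the 5 mevalonate or sterol genes and the 5 others with the lowest p, the SREBP genes with Insig1, and the genes of highest and lowest level, with up to 3 genes of lowest p from each further list. Some genes of the lists are not reported here.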

Additional observations from a re-analysis of the deposited data

Results flagged for a closer look

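Of 120 sets of 4 mice, 1 gene in 1 group each, 8 held a library far from the other 3 (Dixon's critical value 0.829). Chance flags about 1 in 20 groups, or 6 of 120. In male CKD 4 the value was 35.8 CPM for Hmgcs1 (40.5 to 40.9 CPM in the others), 2.46 CPM for Sqle (1.88 to 1.91 CPM) and 3.6 CPM for Stard4 (12 to 13 CPM). In female CKD 1 it was 16.8 CPM for Cyp51 (14.7 to 15 CPM) and 42.6 CPM for Scd2 (28.7 to 28.9 CPM). In female CKD 4 it was 47.4 CPM for Acly (36.9 to 37.5 CPM). In female control 2 it was 35.9 CPM for Sc5d (30.9 to 31.8 CPM) and 42.4 CPM for Acaca (22 to 24.1 CPM).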

How the results depend on the processing

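The 30 genes gave 3870 values under the alternatives: 3595 kept the sign of the value reported and 275 had the other sign, none of these past the test; Dhcr7 in DESeq2 was the 1 call, so that tool called 1 of the 30. Over all genes the count for CKD against control, 14 in edgeR, was 398 in DESeq2, 199 in limma-voom, 53 with no filter, 234 with the title number as a factor, 8 with title number 6 only, and 22 both with the GC trend removed and without male CKD 4 and female control 2. Leaving out 1 library gave 6 to 43, the highest without female CKD 4 and the next, 37, without male control 2; 6 came without male CKD 1, male control 4, female CKD 1, 2 or 3, or female control 3. In males (0) it was 12 in DESeq2, 1 with no filter and 0 to 1 with a library left out, 1 without female control 1. In females (9) it was 32 in DESeq2, 55 in limma-voom, 3 with title number 6 only and 0 with libraries of that sex alone, and 0 to 13 with a library left out, 0 without female CKD 1 or 2 and 13 without male CKD 4. Between sexes in controls (6) it was 12 in DESeq2 and 6 to 10 with a library left out, 10 without male CKD 4. The causes of these shifts were not tested. With male CKD 4 and female control 2 left out, r was -0.21 for Hmgcs1 and Insig1 (0.24 with all), 0.11 for Sqle and Cyp51 (-0.01), 0.12 for Fasn and Acly (-0.09) and 0.17 for Fads1 and Fads2 (-0.06). The median over the 30 ran from -0.19 to -0.12 with a library left out. No paired analysis was possible because the library numbers were given in accession order and pair no mice. With 4 mice a group the median SE in females was 0.213 log2 units, which limits what could be called.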
